A study of Homo sapiens with 24 samples.

Results

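Matrix metalloproteases (MMPs), ADAMTS proteases and tissue inhibitors of metalloproteases (TIMPs) were examined in RWPE1 cells, an immortalized line of human prostate epithelial cells that does not form tumors. The members were MMP2, MMP9, MMP10, MMP13, MMP14, ADAMTS1, ADAMTS15, TIMP1, TIMP2 and TIMP3, 10 genes in all, with every probe set of an Affymetrix U133 Plus 2.0 array whose annotation gives only one of these symbols. This gave 22 of 54613 probe sets. Cultures received 1,25(OH)2D, the active hormone made from vitamin D, at 100 nM or its solvent ethanol (vehicle), and were harvested after 6, 24 or 48 h. Each of the 6 groups was measured on 4 arrays. All cultures shared the cell line and the medium, and the 48 h cultures had their medium replaced at 24 h, so changes between times cannot be told apart from culture age, density or that replacement.

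These enzymes are zinc-dependent proteases that cut the extracellular matrix and proteins at the cell surface. MMP2 and MMP9 are gelatinases that cleave the type IV collagen of basement membranes, MMP14 sits in the cell membrane and activates the proform of MMP2, and the ADAMTS proteases are secreted enzymes of which ADAMTS1 and ADAMTS15 cut proteoglycans such as versican. TIMPs bind the active site of these proteases and block it. TIMP2 also takes part in the activation of MMP2 by MMP14, and TIMP3 is held in the matrix and inhibits ADAMTS enzymes as well.

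Values are gcRMA expression values on the log2 scale, and differences are given as treated minus vehicle group means. Of 54613 probe sets, the 26000 with the highest value reached by 3 of the 4 arrays of at least 1 group were tested with limma. A change was called where the p adjusted over all 26000 by Benjamini and Hochberg was under 0.05. Among the members 15 of 22 probe sets were tested, for 7 of 10 genes. CYP24A1, the enzyme that degrades 1,25(OH)2D and a standard check of the treatment, was higher by 10.08, 6.10 and 5.99 with 1,25(OH)2D at the successive times. Within groups, 1 axis held 75.2% of the variance between arrays (first principal component after group means were subtracted). The arrays that stood apart on it, by more than 0.3, were 4: replicates 1 and 4 of 1,25(OH)2D at 24 h, and replicate 1 of vehicle at both 6 and 24 h. Fits without these 4 keep at 24 h only replicates 2 and 3 of 1,25(OH)2D and replicates 2, 3 and 4 of vehicle. The 4 were picked by their distance from their own groups in these same data, which narrows the spread in such fits. Averaged over genes, the SD of treated arrays at 6, 24 and 48 h was 0.256, 0.412 and 0.157, against 0.270, 0.259 and 0.112 in vehicle arrays. The labels call the 4 arrays of a group biological replicates and say no more of their origin, so p-values measure the spread between these samples.

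Markers of other cell types were low in all groups. Of 6 markers of fibroblasts and stroma only LUM was tested, with a mean of 3.28 over 24 arrays near the lowest value tested, while DCN, COL1A2, COL6A3, PDGFRB and FAP lay below the filter. The summed level of these 6 was between 5.18 and 5.44 (log2) with 1,25(OH)2D and between 5.21 and 5.40 with vehicle. PECAM1 of endothelium averaged 3.66 and PTPRC of leukocytes 3.37. The basal keratins KRT5 and KRT14 averaged 15.34 and 16.12, and the luminal keratins KRT8 and KRT18 averaged 12.96 and 14.41, while KLK3, the secretory product of luminal cells, was at 3.92. A cell's RNA content and the number of cells of a kind cannot be told apart in such bulk samples.

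MMP2 fell with 1,25(OH)2D and ADAMTS15 rose for a short time, and these were the only changes of more than 1 on the log2 scale that passed the test. ADAMTS15 was raised at 6 h alone, with TIMP2 slightly higher at the same time. At 48 h MMP2 was 8.09-fold lower and TIMP3 slightly lower. The MMP2 difference behind this fold, -3.02 on the log2 scale, lay between -3.02 and -2.13 over 10 other settings. By limma 2 of 15 member probe sets were called at 6 h, both higher, where 2.69% of all tested probe sets were called and 1.91% were called higher. One of the 2, ADAMTS15, passed the filter only through the treated arrays at 6 h and had to differ there, so nothing is read from this count. At 48 h 2 of 15 were called, both lower, where 9.63% of all were called and 5.62% called lower. At 24 h 0 of 15 were called, where 0.354% of all were, although 6 had an unadjusted p under 0.05. Without the 4 arrays that stand apart 2 of 15 were called at 24 h, where 21.1% of all were. SAM, the study's test, called 3, 5 and 3 of 15 at 6, 24 and 48 h, where it called 6.37%, 5.79% and 13.6% of all. Most of its calls at 24 h were probe sets of the 1 gene MMP14. The median differences of the 15 at 6, 24 and 48 h were 0.21, -0.18 and -0.15, beside -0.03, 0.02 and -0.01 over all tested probe sets. The 2 groups did not overlap in 4, 4 and 2 of the 15 probe sets at 6, 24 and 48 h, beside 7.32%, 5.19% and 16.1% of all tested. ADAMTS15 is among the SAM calls and among the probe sets without overlap at 6 h, so nothing is read from those counts either.

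**Figure D1:**
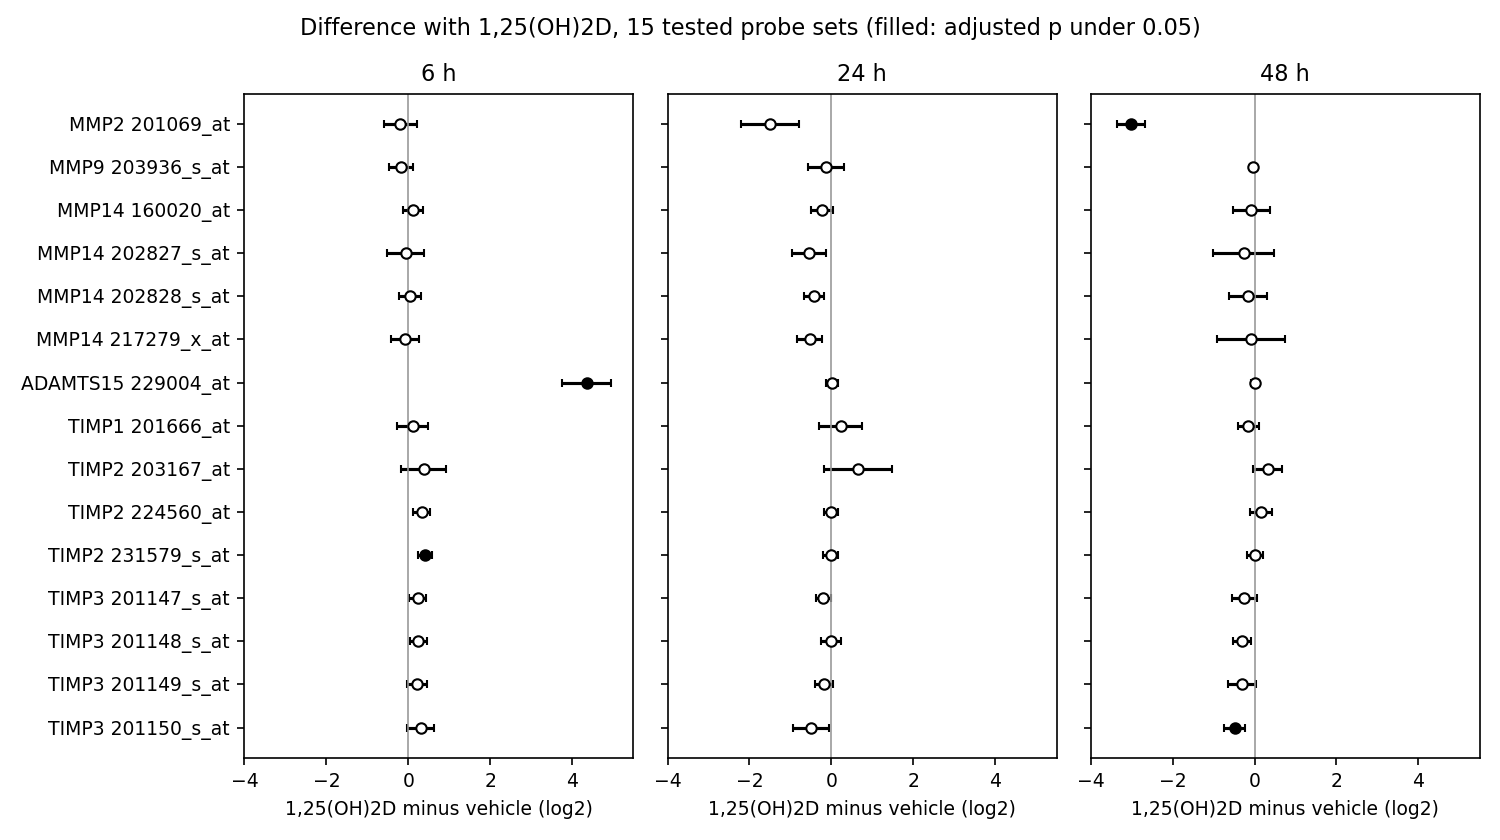
Log2 difference (1,25(OH)2D minus vehicle) of the 15 tested probe sets at 6, 24 and 48 h, with points for the limma estimate from 4 against 4 arrays and whiskers for its 95% interval. Filled points passed an adjusted p of 0.05: ADAMTS15 and 1 TIMP2 probe set at 6 h, none at 24 h, and MMP2 and 1 TIMP3 probe set at 48 h.

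MMP2, gelatinase A, fell late. At 6 h its probe set 201069_at had 7.66, 7.62, 7.00 and 7.39 in arrays with 1,25(OH)2D, against 7.94, 7.48, 7.54 and 7.48 with vehicle, and the groups overlapped. At 24 h the arrays with 1,25(OH)2D had 6.11, 6.37, 5.80 and 7.26, against 8.18, 7.66, 7.79 and 7.88 with vehicle. Every treated array was then below every vehicle array, with replicate 4, one of the arrays that stand apart, closest to vehicle. At 48 h the treated arrays had 4.64, 4.87, 5.28 and 4.66, against 7.88, 7.65, 7.98 and 8.02 with vehicle, a gap wider than the spread of either group.

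The MMP2 differences at 6, 24 and 48 h were -0.19 (SE 0.17), -1.49 (SE 0.30) and -3.02 (SE 0.15). By limma only the last passed the threshold (adjusted p = 2.5e-05), while the adjusted p at 24 h was 0.150 with a 95% interval of -2.20 to -0.78. SAM called MMP2 at 24 and 48 h. The 24 h difference passed in limma without the 4 arrays that stand apart (-1.69, adjusted p = 0.0140), without 1,25(OH)2D replicate 4 alone (-1.79, adjusted p = 0.0200) and in a fit of all 24 arrays (adjusted p = 7.12e-04). The fit of all 24 arrays uses 1 spread for all 6 groups, although the treated arrays at 24 h had the largest SD (0.63). The 24 h difference did not pass with any other of the 8 arrays left out (7 of 8, adjusted p up to 0.468) nor in the remaining 8 of 10 settings (adjusted p up to 0.792). On the axis along which the arrays differed, the loading of MMP2 was higher than that of 91.5% of genes, and its part in the 24 h difference was not tested. The 48 h difference was -3.15 to -2.94 with each of the 8 arrays left out in turn, with an adjusted p under 0.05 each time (highest 2.67e-04).

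The fall deepened with time in the treated cells while vehicle stayed level. Mean MMP2 was 7.42 ± 0.30, 6.38 ± 0.63 and 4.87 ± 0.29 (SD, n = 4) at 6, 24 and 48 h with 1,25(OH)2D, against 7.61 ± 0.22, 7.88 ± 0.22 and 7.88 ± 0.17 with vehicle. In a fit of all 24 arrays the treated cells were lower at 24 h than at 6 h (difference -1.03, adjusted p = 0.00463), and lower again at 48 h than at 24 h (difference -1.52, adjusted p = 0.00104). In vehicle the changes were 0.27 between 24 and 6 h and 0.01 between 48 and 24 h, neither past the threshold. The effect of 1,25(OH)2D differed between 48 and 6 h by -2.82 (SE 0.33, adjusted p = 1.54e-05) and between 24 and 6 h by -1.30 (SE 0.33, adjusted p = 0.0398). The first call held with each of the 24 arrays left out in turn, while that between 24 and 6 h was lost without any 1 of 15 of them (differences of -1.59 to -1.10 and adjusted p up to 0.0892 over the 24). It was kept only without vehicle replicate 1 or 1,25(OH)2D replicate 3 at 6 h, vehicle replicate 2 or 1,25(OH)2D replicate 4 at 24 h, or vehicle replicate 2 or any treated array at 48 h. Between 48 and 24 h it differed by -1.52 (SE 0.33) with an adjusted p of 0.162, and without the 4 arrays that stand apart by -1.32 (adjusted p = 0.0385). These comparisons share arrays and are not independent of one another. They also use 1 spread for all 6 groups, so p-values are too small where the treated arrays at 24 h (SD 0.63) enter.

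The other probe sets of MMP2, 1566677_at and 1566678_at, lay between 2.55 and 2.85 on all 24 arrays, so the fall is read from 1 probe set. The stromal marker that was tested, LUM, differed by 0.02 at 48 h and was not called. Its vehicle mean was 3.26 then, near the lowest value tested (3.20). A fall could not be seen there, and nothing on stromal cells is read from it. Among the basal markers, KRT15 was lower with 1,25(OH)2D at 48 h, 10.50 ± 0.14 with 1,25(OH)2D and 12.42 ± 0.24 with vehicle (SD, n = 4), while KRT5, KRT14 and ITGA6 were not called. The summed basal marker level was between 16.86 and 16.91 with 1,25(OH)2D and between 16.89 and 16.92 with vehicle at 48 h. This sum of linear values is made up mostly of KRT14 and KRT5, with means of 16.12 and 15.34 over 24 arrays. It could not show a change in KRT15, and nothing on basal identity is read from it. The part of the cells' keratin pattern in the MMP2 result was not tested.

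**Figure D2:**
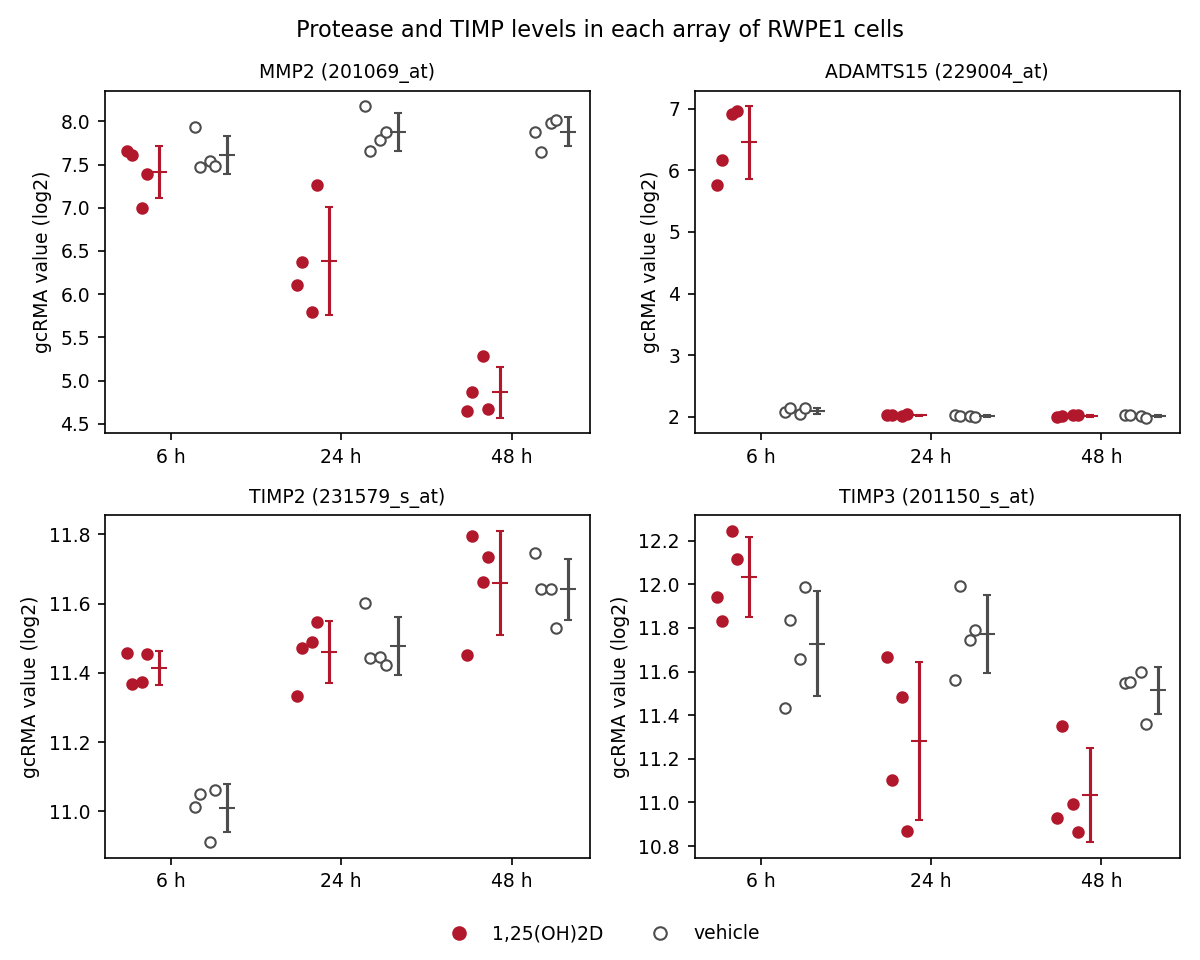
gcRMA values (log2) of MMP2, ADAMTS15, TIMP2 and TIMP3 in each array at 6, 24 and 48 h, with 1,25(OH)2D as filled points left of vehicle as open points, 4 arrays per group, and horizontal marks with whiskers for the mean ± 1 SD. MMP2 with 1,25(OH)2D lies between 4.64 and 5.28 at 48 h, below all vehicle arrays, and ADAMTS15 leaves its low level only with 1,25(OH)2D at 6 h.

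MMP9, gelatinase B, was dim in all 6 groups. Its probe set 203936_s_at averaged 3.31 ± 0.02, 3.36 ± 0.07 and 3.30 ± 0.01 at 6, 24 and 48 h with 1,25(OH)2D, against 3.48 ± 0.26, 3.49 ± 0.39 and 3.33 ± 0.04 with vehicle (SD, n = 4). The differences were -0.17 (95% interval -0.47 to 0.13), -0.13 (-0.56 to 0.30) and -0.03 (-0.12 to 0.06), and none was called. Most arrays lay within a narrow band just above the lowest value tested (3.20), and 1 vehicle array at 24 h had 4.07. As vehicle lay in this band too, a fall like that of MMP2 could not be seen in MMP9.

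The collagenase MMP13 and the stromelysin MMP10, which breaks down proteoglycans and activates other proMMPs, were not detected above the bottom of the scale, nor was ADAMTS1. Together with the second ADAMTS15 probe set and the other MMP2 probe sets, these make 7 member probe sets that were too dim to be tested. They ranged between 1.90 and 3.06 on the 24 arrays, and the largest difference between a treated and a vehicle mean at any time was 0.14. At such levels gcRMA values hardly vary, so a small change in these transcripts could not be seen.

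MMP14, the membrane-type enzyme, was not called with 1,25(OH)2D at any time. Its brightest probe set, 202827_s_at, had 8.08, 8.05, 8.02 and 7.39 in arrays with 1,25(OH)2D at 24 h, against 8.39, 8.66, 8.46 and 8.21 with vehicle. All treated arrays were below all vehicle arrays in this probe set, in 202828_s_at and in 217279_x_at, but not in 160020_at. The 24 h differences of the 4 probe sets were -0.54 (SE 0.18), -0.42 (SE 0.10), -0.53 (SE 0.13) and -0.24 (SE 0.11), in the order 202827_s_at, 202828_s_at, 217279_x_at and 160020_at. By limma their adjusted p lay between 0.230 and 0.601, whereas SAM called the first 3 as lower. Without the 4 arrays that stand apart the differences were -0.41, -0.30, -0.42 and -0.11 (adjusted p from 0.0857 to 0.453).

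The separation of MMP14 at 24 h came with a higher vehicle level. In vehicle, 202828_s_at was 0.55 higher at 24 h than at 6 h (adjusted p = 0.0283) and 160020_at 0.51 higher (adjusted p = 0.0436), calls that were lost without the 4 arrays that stand apart (0.53, adjusted p = 0.0762, and 0.40, adjusted p = 0.185). At 48 h vehicle 160020_at was 0.51 above 6 h (adjusted p = 0.0263). In treated cells no MMP14 probe set was called between any 2 times. At 48 h 1 treated array stood out: 202827_s_at had 7.63, 9.16, 8.28 and 7.74 with 1,25(OH)2D, against 8.41, 8.24, 8.76 and 8.48 with vehicle, and replicate 2 was the highest treated array in all 4 probe sets. With it the 48 h differences were between -0.27 and -0.08, and without it between -0.59 and -0.27 (adjusted p from 0.0865 to 0.145).

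ADAMTS15 rose at 6 h and was back at its low level by 24 h. Its probe set 229004_at had 5.77, 6.17, 6.92 and 6.97 in arrays with 1,25(OH)2D at 6 h, against 2.07, 2.14, 2.04 and 2.13 with vehicle. The other 20 arrays lay between 1.99 and 2.14, below the lowest value tested, so the probe set entered the test only through the group in which it was high and had to differ there. The later groups were tight, with 2.02, 2.03, 2.02 and 2.04 with 1,25(OH)2D at 24 h and 2.03, 2.01, 2.02 and 1.99 with vehicle.

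The difference at 6 h was 4.36 (SE 0.26, adjusted p = 8.89e-05) and lay between 4.19 and 4.59 with each of the 8 arrays left out in turn. As a ratio of means on the linear scale the rise of ADAMTS15 was 21.8-fold, a size that rests on the residual background of dim spots: with an offset of 32 added on the linear scale before log2 the difference was 1.74 in place of 4.36. In a fit of all 24 arrays the treated cells were lower at 24 h than at 6 h (difference -4.43, adjusted p = 1.19e-13), and at 48 h the difference from 6 h was -4.44 (adjusted p = 9.89e-14). That fit uses 1 spread for all 6 groups. The SD was 0.59 in treated arrays at 6 h, against 0.05 in vehicle arrays then and 0.01 in treated arrays at 24 h. Its p-values are therefore too small for comparisons with the treated arrays at 6 h. The 95% interval of the effect was -0.12 to 0.15 at 24 h and -0.08 to 0.08 at 48 h. The second ADAMTS15 probe set, 1553427_at, lay between 1.90 and 1.96 on all arrays and showed no rise at 6 h, so the rise too is read from 1 probe set.

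TIMP1, which inhibits most MMPs, was not called at any time. Its probe set 201666_at averaged 12.70 ± 0.28, 12.91 ± 0.38 and 12.72 ± 0.25 at 6, 24 and 48 h with 1,25(OH)2D, against 12.59 ± 0.21, 12.68 ± 0.31 and 12.87 ± 0.03 with vehicle (SD, n = 4). The differences were 0.11 (95% interval -0.27 to 0.49), 0.23 (-0.30 to 0.75) and -0.15 (-0.41 to 0.11). The groups overlapped at every time.

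TIMP2 was slightly higher with 1,25(OH)2D at 6 h. Its probe set 231579_s_at had 11.46, 11.37, 11.37 and 11.46 in arrays with 1,25(OH)2D at 6 h, against 11.01, 11.05, 10.91 and 11.06 with vehicle, without overlap. The difference was 0.40 (SE 0.08, adjusted p = 0.0291), and it passed the threshold only without vehicle replicate 1 when each array was left out in turn (adjusted p = 0.0363, others from 0.0568 to 0.116). After median centring of the arrays it was 0.39 (adjusted p = 0.346), and averaged over its 3 probe sets 0.37 (adjusted p = 0.141). The probe sets 224560_at and 203167_at differed by 0.33 (adjusted p = 0.147) and 0.38 (adjusted p = 0.887) at 6 h, and SAM called 224560_at as well as 231579_s_at.

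At the later times vehicle had reached the treated level in the brightest TIMP2 probe set, 231579_s_at. Mean 231579_s_at was 11.41 ± 0.05, 11.46 ± 0.09 and 11.66 ± 0.15 at 6, 24 and 48 h with 1,25(OH)2D, against 11.01 ± 0.07, 11.48 ± 0.08 and 11.64 ± 0.09 with vehicle (SD, n = 4). In vehicle it was 0.47 higher at 24 h than at 6 h (adjusted p = 4.04e-04) and 0.63 higher at 48 h than at 6 h (adjusted p = 7.22e-06), whereas in treated cells the difference between 48 and 6 h was 0.25 (adjusted p = 0.0257). Between 24 and 6 h the effect of 1,25(OH)2D differed by -0.42 (SE 0.11, adjusted p = 0.0381). Without the 4 arrays that stand apart it was -0.36 (adjusted p = 0.0946), and the call was also lost without any 1 of 16 of the 24 arrays (adjusted p up to 0.0845). It was kept only without vehicle replicate 4 or 1,25(OH)2D replicate 2 at 6 h, 1,25(OH)2D replicate 4 at 24 h, or vehicle replicates 1 or 4 or 1,25(OH)2D replicates 1, 2 or 4 at 48 h. The dimmer probe set 203167_at differed by 0.65 at 24 h (adjusted p = 0.601), and without those 4 arrays by 0.81 (adjusted p = 0.0214), while 231579_s_at and 224560_at differed by no more than 0.02 in size there with all arrays, so the TIMP2 probe sets did not move alike at 24 h. At 48 h 203167_at averaged 8.61 ± 0.33 with 1,25(OH)2D and 8.29 ± 0.09 with vehicle, and was not called with all arrays.

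TIMP3, the matrix-bound inhibitor, was lower with 1,25(OH)2D at 48 h in 1 of its 4 probe sets. The brightest, 201150_s_at, had 10.93, 11.35, 10.99 and 10.87 in arrays with 1,25(OH)2D, against 11.55, 11.55, 11.60 and 11.36 with vehicle, and the highest treated array reached just under the lowest vehicle array. The difference was -0.48 (SE 0.11, adjusted p = 0.0326). In 201147_s_at, 201148_s_at and 201149_s_at the 48 h differences were -0.25, -0.31 and -0.31 (adjusted p from 0.0956 to 0.331).

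The TIMP3 call at 48 h depended on single arrays. It was lost without any 1 of vehicle replicates 1, 2 and 3 or 1,25(OH)2D replicates 1, 3 and 4 (adjusted p from 0.0766 to 0.0896), in a fit of all 24 arrays (adjusted p = 0.121), with no filter on dim probe sets (adjusted p = 0.0897) and for the mean of the gene's probe sets (-0.34, adjusted p = 0.105). Without 1,25(OH)2D replicate 2, the treated array with the highest TIMP3 in all 4 probe sets, 201150_s_at differed by -0.58 (adjusted p = 0.00276), and 201148_s_at (adjusted p = 0.0405) and 201149_s_at (adjusted p = 0.0163) passed too. With MMP2 and TIMP2 203167_at (higher by 0.47, adjusted p = 0.0103), 5 member probe sets were called at 48 h without that array. The share of all tested probe sets called in that fit is not given here, so nothing is read from this count.

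The time course of TIMP3 was steeper than its difference at 48 h. In a fit of all 24 arrays, all 4 probe sets were lower in treated cells at 24 h than at 6 h (differences of -0.32 to -0.75, adjusted p from 4.59e-04 to 0.0276), and at 48 h than at 6 h (differences of -0.65 to -1.05, adjusted p from 2.40e-06 to 1.09e-04). In vehicle 201147_s_at and 201149_s_at were lower at 48 h than at 6 h as well (differences of -0.39, adjusted p = 0.0145, and -0.54, adjusted p = 0.00459), and the other probe sets were not called. At 6 h all 4 probe sets were a little higher with 1,25(OH)2D, by 0.21 to 0.30, with no call (adjusted p from 0.357 to 0.710). At 24 h the differences lay between -0.49 (201150_s_at) and -0.02 (201148_s_at), none was called by limma (adjusted p from 0.528 to 0.924), and SAM called 201147_s_at as lower (-0.20). Between 48 and 6 h the effect of 1,25(OH)2D differed by -0.55 in 201148_s_at (SE 0.14, adjusted p = 0.0275, lost without any 1 of vehicle replicates 1 and 3 or 1,25(OH)2D replicates 3 and 4 at 6 h, or vehicle replicates 2 and 3 or 1,25(OH)2D replicates 1 and 4 at 48 h, with adjusted p up to 0.0726) and by -0.78 in 201150_s_at (SE 0.22, adjusted p = 0.0686).

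**Figure D3:**
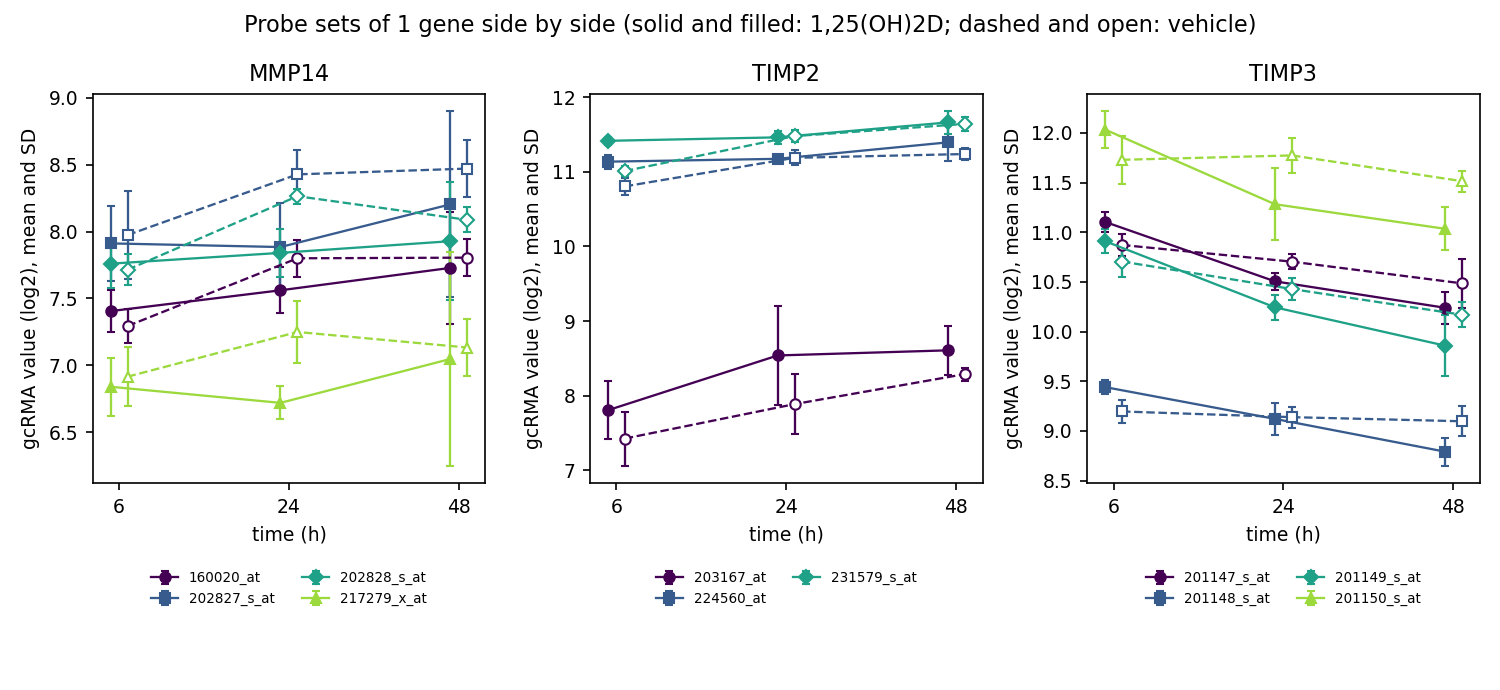
Mean gcRMA value (log2) with SD of each tested probe set of MMP14, TIMP2 and TIMP3 at 6, 24 and 48 h (times evenly spaced), 4 arrays per point, with 1,25(OH)2D as solid lines and filled points and vehicle as dashed lines and open points. The treated lines of all 4 TIMP3 probe sets lie lower at 48 h than at 6 h (differences of -0.65 to -1.05), and TIMP2 231579_s_at in vehicle climbs to the treated level by 24 h.

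Changes between times in the 15 probe sets were as frequent as follows. The 15 stand for 7 genes, and probe sets of 1 gene are not independent, so no excess over the shares is read from these counts. In treated cells 6 of 15 were called at 24 h against 6 h, all lower, where 16.7% of all tested probe sets were called and 7.85% called lower. These came from 3 genes, with all probe sets of TIMP3 among them. At 48 h against 6 h 7 of 15 were called, from 4 genes, 6 of them lower, where 17.3% of all were called and 8.69% called lower. Between 48 and 24 h 1 of 15 was called in treated cells (1.91% of all). In vehicle 4 of 15 were called between 24 and 6 h, all higher at 24 h (7.82% of all called, 4% higher), 6 of 15 between 48 and 6 h (14.7% of all) and 0 of 15 between 48 and 24 h (0.315% of all, 3 of 15 at an unadjusted p under 0.05). The vehicle calls came from 2 genes between 24 and 6 h and from 3 genes between 48 and 6 h. The effect of 1,25(OH)2D differed between 48 and 6 h in 3 of 15 (2.8% of all) and between 24 and 6 h in 3 of 15 (2.12% of all), each time lower at the later time, as in 1.77% and 1.33% of all. ADAMTS15, which its treated arrays at 6 h alone brought past the filter, is among the lower probe sets in each of these counts of treated cells against 6 h and of effects against 6 h. Between 48 and 24 h it differed in 0 of 15 (0.0346% of all, 2 of 15 at an unadjusted p under 0.05).

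Promoter sequence was available for MMP10, MMP14, TIMP1 and TIMP3, 4 of the 10 members, from RefSeq (GRCh38.p14). The 250 bases before the start site of TIMP3 (chr22:32801455-32801704, + strand) and of MMP10 (chr11:102780629-102780878, - strand) are shown because they stand for a member that was detected and moved and for one that was at the bottom of the scale in all 6 groups, and they differ in composition. Capitals mark matches, on either strand, to the GC box GGGCGG, the TATA box TATAAA and the AP-1 site TGANTCA.
TIMP3: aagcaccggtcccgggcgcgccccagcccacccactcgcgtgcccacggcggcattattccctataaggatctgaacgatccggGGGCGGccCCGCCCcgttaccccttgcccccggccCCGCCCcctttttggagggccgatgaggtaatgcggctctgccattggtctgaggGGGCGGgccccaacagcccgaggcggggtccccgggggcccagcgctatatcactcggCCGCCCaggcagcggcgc
MMP10: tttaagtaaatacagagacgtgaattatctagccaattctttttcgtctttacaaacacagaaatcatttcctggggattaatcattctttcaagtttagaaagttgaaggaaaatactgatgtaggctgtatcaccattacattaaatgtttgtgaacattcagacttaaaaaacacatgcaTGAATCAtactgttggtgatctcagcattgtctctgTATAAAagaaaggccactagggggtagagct

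The TIMP3 window was 72.4% G or C with 5 GC boxes, and the MMP10 window 34.4% with none, beside a median of 58% over 35116 promoters. TIMP1 had 2 GC boxes and MMP14 had 1, and 42.6% of all promoters held at least 1. Of the 4 members only MMP10 held a TATA box match and an AP-1 match, which 10.7% and 6.57% of all promoters held. A direct repeat of vitamin D receptor half-sites spaced by 3 bases (DR3) was not among the letters of the 4 windows, and 0.0655% of all promoters of this length held one. A match describes the letters and not a site that a factor uses, and the lack of one says only that the letters are not in this window.

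Genes of the same families and their partners were taken from lists by role. The percentage of all 12010 genes with a tested probe set of their own that changed at 6, 24 and 48 h was 3.41%, 0.516% and 12%. Of 18 other MMPs 7 were tested, and none was called at 6 or 24 h. At 48 h MMP28 (epilysin), an MMP of keratinocytes, rose by 1.05 (adjusted p = 6.72e-04), with 9.73 with 1,25(OH)2D and 8.67 with vehicle. Its difference at 24 h was 0.83 (SE 0.12) and just missed the threshold (adjusted p = 0.0509), so its onset is not placed at 48 h. MMP19, which cleaves basement membrane proteins, fell by 0.82 (adjusted p = 0.00844), though its level of 2.73 with 1,25(OH)2D and 3.55 with vehicle lay near the bottom of the scale. Of 17 other ADAMTS proteases 5 were tested, and 1 was called, ADAMTS17 at 48 h, which fell by 0.72 (adjusted p = 0.0153). Its difference at 24 h was larger, -1.15 (SE 0.19), and was not called (adjusted p = 0.0686). Of 9 ADAMs, membrane proteases that shed proteins from the cell surface, 5 were tested, and at 48 h ADAM15 rose by 0.55 (adjusted p = 0.0197) while ADAM9 and ADAM10 fell by 0.43 and 0.26 (adjusted p = 0.00519 and 0.0474). At 24 h ADAM15, ADAM9 and ADAM10 differed by more, 0.73 (SE 0.30), -0.95 (SE 0.50) and -0.86 (SE 0.53), and were not called. The onset of these changes is therefore not placed at 48 h.

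Of 18 inhibitors, activators and partners 16 were tested. At 6 h 2 rose and 0 fell, PLAT and PLAU, the tissue and urokinase plasminogen activators, whose product plasmin can activate proMMPs. PLAU rose by 1.56 (adjusted p = 2.48e-04), with 10.35 with 1,25(OH)2D and 8.78 with vehicle, and was no longer called at 24 or 48 h. At 48 h 3 rose and 0 fell. PLAUR, the receptor of urokinase, rose by 0.52 (adjusted p = 0.0193), BSG (basigin), a membrane protein known to induce MMPs in neighbouring cells, by 0.38 (adjusted p = 0.00546), and ST14 (matriptase), a serine protease named here after its value was seen, by 0.26 (adjusted p = 0.0207). At 24 h they differed by 0.57 (SE 0.24), 0.44 (SE 0.21) and 0.25 (SE 0.14) without a call, so their onset is not placed at 48 h. The list's median differences were 0.05, 0.10 and 0.04 at 6, 24 and 48 h, beside -0.03, 0.01 and -0.01 over all genes.

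Of 19 substrates 14 were tested, with 3 called at 6 h (3 higher, 0 lower), 1 at 24 h (0 higher, 1 lower) and 6 at 48 h (4 higher, 2 lower). HBEGF, a membrane-bound growth factor that metalloproteases release, rose by 2.90 at 6 h (adjusted p = 3.91e-05) and by 1.38 at 48 h (adjusted p = 3.86e-04). LAMB3, a laminin chain of epithelial basement membrane, rose by 1.78 at 6 h (adjusted p = 1.51e-04), and HSPG2 (perlecan), a proteoglycan of the same structure, by 1.14 at 48 h (adjusted p = 0.00207). HSPG2 already differed by 1.27 (SE 0.34) at 6 h without a call (adjusted p = 0.126). Fibronectin, FN1, fell by 1.00 at 24 h (adjusted p = 0.0282) and by 1.12 at 48 h (adjusted p = 0.00200), and the collagen chain COL1A1 fell by 0.60 at 48 h (adjusted p = 0.0136). The remaining call at 6 h was SDC1, a cell surface proteoglycan named after its values were seen, which also rose at 48 h, as did LAMB3. The substrates therefore moved in both directions at 48 h, and their median difference there was 0.09.

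**Figure D4:**
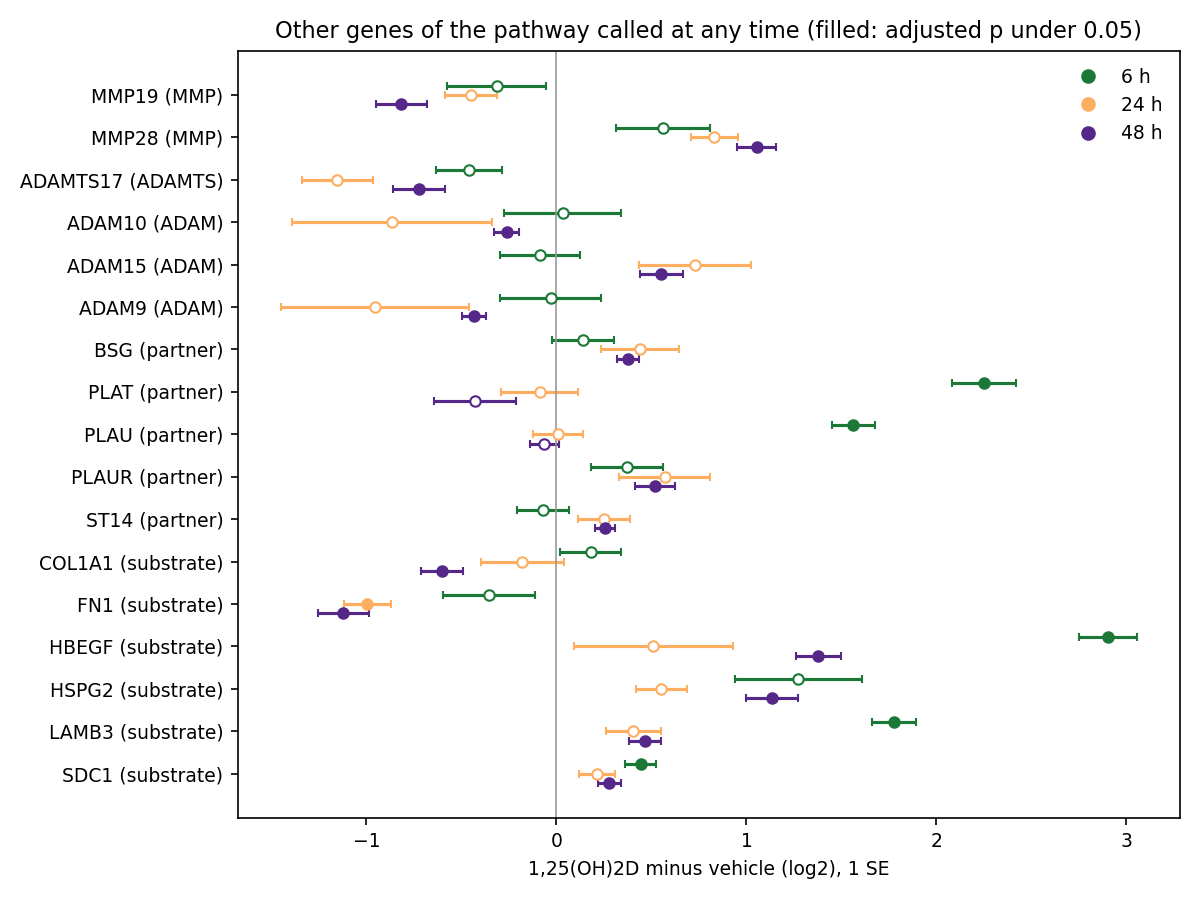
Log2 difference (1,25(OH)2D minus vehicle, point) with 1 SE (whisker) at 6, 24 and 48 h of the 17 genes from the 5 lists that were called at any time, 4 arrays per group and time. Filled points passed an adjusted p of 0.05. The plasminogen activators PLAT and PLAU are raised at 6 h only, and FN1 lies to the left of 0 at 24 and 48 h.

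Over the 24 arrays, the genes whose pattern was most like that of MMP2, by Pearson correlation among 2005 genes whose group means spanned at least 1 (log2), were MFAP5, a glycoprotein of elastic microfibrils (0.953), CFAP251 (0.927) and TNS1, a focal adhesion protein (0.917). MFAP5 had group means of 11.50, 10.35 and 8.99 at 6, 24 and 48 h with 1,25(OH)2D, against 11.51, 11.31 and 11.45 with vehicle. ADAMTS15 was most like GEM (0.998), ALOX5AP (0.993) and SHE (0.987), which were also high at 6 h with 1,25(OH)2D alone. Their means in the other groups lay between 2.14 and 2.93, below the lowest value tested (3.20). Like ADAMTS15, they entered the comparison through that 1 group, so coefficients near 1 had to follow and nothing is read from them. TIMP3 was most like TJP1, a tight junction protein (0.914), SHANK2 (0.907) and the cysteine protease CTSV (0.905). These coefficients are descriptions over arrays that share 6 groups and a common axis of variation.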

How the data were processed

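RNA from RWPE1 cells was hybridised to 24 Affymetrix U133 Plus 2.0 arrays, 4 per treatment and time. The authors ran gcRMA (version not given in the sources used here) over all 24 arrays at once, which makes the deposited values log2 intensities after background correction and quantile normalization. Arrays have no read depth, and 4 arrays per group limit the precision. Controls (62) were dropped. A probe set was ranked by the value that 3 arrays of its best group reached, and the top 26000 (3.20 or more) were tested. The present calls of the study were not used here. Probe sets were assigned by the platform annotation, with 41091 carrying 1 symbol, 1801 several and 11721 none.

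Each time point's treated and vehicle arrays were set against each other by lmFit and eBayes of limma 3.58.1 (R 4.3.3). Effects across times came from 1 fit of 6 group means. That fit uses 1 spread for all groups, although the groups differed in spread. Its p-values tend to be too small where a noisier group is compared. P-values were adjusted by Benjamini and Hochberg over all tested probe sets. A gene outside the 10 members was represented by its brightest tested probe set with 1 symbol. Alternatives were all 24 arrays in 1 fit, SAM (re-implemented, 5% false discovery rate), no filter, a stricter filter (15000 probe sets), median centring, a second quantile normalization, an offset of 32, limma's trend and robust options, a replicate block, ratios of mean linear values, averaging the probe sets of a gene, each array left out in turn, and leaving out the 4 arrays that stand apart. The methods were tested on simulated data. Members, lists and alternatives were chosen with earlier results of these data known. All members are named, and from each list up to 2 rises and 2 falls per time among called genes, CYP24A1, and the 3 genes most like each of the 3 members with the widest range.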

Additional observations from a re-analysis of the deposited data

Results flagged for a closer look

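Among 42 groups of 4 arrays (7 genes, each by its brightest tested probe set, in 6 groups), the highest or lowest array stood far from the other arrays of its group in 4, and chance gives about 1 in 20. All 4 values come from 3 of the 4 arrays that stand apart over all genes. MMP14 at 24 h with 1,25(OH)2D had a lowest array of 7.39 (replicate 4), with the next at 8.02. MMP2 at 6 h with vehicle had a highest array of 7.94 (replicate 1), with the next at 7.54. At 24 h with vehicle, in replicate 1, MMP9 had a highest array of 4.07 (next 3.30) and TIMP2 one of 11.60 (next 11.45).

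The effect of 1,25(OH)2D differed between times, by limma's test of the difference, in 4 genes. At 48 h minus 6 h the difference was -4.36 for ADAMTS15 229004_at (adjusted p = 1.29e-10), -2.82 for MMP2 201069_at (adjusted p = 1.54e-05) and -0.55 for TIMP3 201148_s_at (adjusted p = 0.0275). At 24 h minus 6 h it was -4.34 for ADAMTS15 229004_at (adjusted p = 1.38e-10), -1.30 for MMP2 201069_at (adjusted p = 0.0398) and -0.42 for TIMP2 231579_s_at (adjusted p = 0.0381). The MMP2 and TIMP2 calls between 24 and 6 h were lost without any 1 of 15 and 16 of the 24 arrays and with the replicate block (adjusted p = 0.0640 and 0.0711), that of TIMP2 also without the 4 arrays that stand apart (adjusted p = 0.0946), and the TIMP3 call without any 1 of 8 arrays. ADAMTS15 passed the filter only through its treated arrays at 6 h and had to differ there. All these p-values come from a fit with 1 spread for all groups, and tend to be too small where a noisier group enters.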

How the results depend on the processing

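The fall of MMP2 at 48 h kept its direction and its call in every alternative in which it was tested, while the calls of TIMP2 at 6 h and TIMP3 at 48 h were lost in several. The call of ADAMTS15 at 6 h was not lost where it was tested, which says little of its stability, since the filter admits its probe set only through the group in which it is high. With the stricter filter ADAMTS15 was not tested. Over 45 differences of single probe sets and 801 alternatives, 743 kept side and direction, 19 lost the call, 7 gained it and 32 turned the sign, the last in 11 differences that were not called. Ratios of mean linear values are among the 801 and have no p-value, so for them only the direction was compared. The cause of the lost calls, gained calls and turned signs was not tested. With median centring the 24 h difference was 0.148 for TIMP3 201148_s_at, 0.152 for TIMP2 224560_at, 0.149 for TIMP2 231579_s_at and 0.037 for MMP9, and at 48 h it was 0.0050 for MMP9. Without the 4 arrays that stand apart the 24 h difference was 0.0023 for TIMP3 201148_s_at, 0.045 for TIMP2 231579_s_at and 0.054 for MMP9. A second quantile normalization gave 0.012 for TIMP3 201148_s_at at 24 h, and the mean of the probe sets 0.0047 for MMP14 at 6 h and 0.207 for TIMP2 at 24 h. With 1 array left out in turn, the differences that crossed 0 lay at 6 h between -0.192 and 0.076 (MMP14 202827_s_at) and between -0.025 and 0.117 (MMP14 202828_s_at). At 24 h they lay between -0.073 and 0.044 (TIMP3 201148_s_at), -0.194 and 0.065 (MMP9), -0.040 and 0.031 (TIMP2 224560_at), and -0.045 and 0.025 (TIMP2 231579_s_at). At 48 h they lay between -0.274 and 0.040 (MMP14 160020_at), -0.471 and 0.101 (MMP14 217279_x_at), -0.0075 and 0.0057 (ADAMTS15 229004_at), and -0.025 and 0.090 (TIMP2 231579_s_at).

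The number of member probe sets called at 6 h (2) was 1 with the stricter filter, with median centring and with the replicate block. At 24 h (0) it was 1 in the fit of all 24 arrays, 2 without the 4 arrays that stand apart and 5 with SAM, and at 48 h (2) it was 1 in the fit of all 24 arrays and with no filter. Without the 4 arrays the effect differed between 48 and 6 h in 5 probe sets in place of 3, and between 48 and 24 h in 1 in place of 0. The difference between 24 and 6 h (3) was 1 with the replicate block. In vehicle, 3 were called between 48 and 6 h with median centring (6 without it), and between 24 and 6 h (4) 2 with no filter, 2 with median centring and 1 without the 4 arrays. In treated cells 2 were called between 48 and 24 h with median centring in place of 1. With 1 array left out in turn the counts were 1 to 2 at 6 h, 0 to 1 at 24 h and 1 to 5 at 48 h, 2 to 7 for the effect at 48 against 6 h, 1 to 3 at 24 against 6 h and 0 to 0 at 48 against 24 h. In vehicle they were 4 to 5 between 48 and 6 h, 1 to 3 between 24 and 6 h and 0 to 0 between 48 and 24 h, and in treated cells 6 to 8, 5 to 7 and 1 to 3. Shares of all tested probe sets are given above only for SAM and, at 24 h, for the fit without the 4 arrays. The other counts describe how calls moved, and nothing particular to the members is read from them.

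Whether replicate numbers pair the arrays is not settled by the labels. Of the 12 pairs of a treated and a vehicle array with the same number and time, 4 deviated together (r over 0.1), with r from -0.907 to 0.781. At 6 h r was 0.781, -0.389, 0.625 and 0.690 for replicates 1, 2, 3 and 4. Pairs with different numbers had r from -0.821 to 0.888. As 1 axis holds most of the variance, r cannot show whether same-numbered cultures were handled together. With the replicate block the TIMP2 adjusted p at 6 h was 0.0623 and that of MMP2 at 48 h 0.00119. The differences of effect between 24 and 6 h lost their call with it in MMP2 (adjusted p = 0.0640) and TIMP2 231579_s_at (adjusted p = 0.0711), and that of ADAMTS15 did not.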
